A study of Mus musculus with 2 samples.

Results

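Lcn2, Saa3, Slpi, Nos2 and Steap4 are 5 genes of the acute-phase and antimicrobial response. All were well counted in mouse embryonic fibroblasts with deleted Usp16 alleles and close to 0 counts in fibroblasts with wild-type Usp16. They were chosen by their counts in the same pair of libraries that is described here, so every difference between these libraries is a description of the genes and carries no test. All 5 were found among the 51912 gene rows of the deposited tables, and all 5 passed the filter of a mean level of 1 CPM (counts scaled to library size) or more over the 2 libraries, as did 13015 genes in all, called measured below.

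Acute-phase genes encode secreted proteins whose synthesis increases quickly after infection or injury, in the liver and also in stromal cells such as fibroblasts. In fibroblasts, interleukin-1, tumour necrosis factor and interleukin-17 induce many of them through the transcription factors NF-kB and C/EBP and the nuclear cofactor IkappaB-zeta, which Nfkbiz encodes. Lcn2 encodes lipocalin 2, which binds the iron-carrying siderophores of bacteria, and Saa3 encodes a serum amyloid A protein made mainly outside the liver in mice. Slpi encodes a secreted inhibitor of leukocyte serine proteases, Nos2 the inducible nitric oxide synthase, and Steap4 a membrane metalloreductase that reduces ferric and cupric ions.

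The study measured RNA by sequencing in 2 libraries, 1 per group. UKS was a line of C57BL/6 mouse embryonic fibroblasts whose floxed Usp16 alleles had been deleted by adenoviral Cre (Usp16-/-). KS was a line with wild-type Usp16 (Usp16+/+), infected with the same Cre virus. Both lines were immortalized with SV40 T antigen, and Usp16 encodes a deubiquitinase that acts on histone H2A. The files held 23205734 counts for UKS and 26561600 for KS, so that 1 count was worth 0.0428 CPM in UKS and 0.0379 CPM in KS. A gene with 0 counts may therefore have been present at up to 0.128 CPM in UKS or 0.114 CPM in KS, the level of 3 counts. Each group is 1 line and 1 library, so no difference has a replicate check, and all 95% intervals below cover counting error alone, as if each count were an independent molecule.

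Usp16 itself had 459 counts in UKS (19.7 CPM), against 1195 counts in KS (45.3 CPM). It was 2.30-fold lower in UKS (95% interval 2.07 to 2.57), with a log2 ratio of −1.16, or −0.86 with the length and GC trend described below removed. The gene lies on chr16:87454703-87483517 of GRCm38. Counts over the whole gene can include exons outside the deleted part, and they do not show how complete the deletion was. The lines also differed in sex-linked genes. Xist, transcribed from the inactive X chromosome, had 6998 counts in UKS and 1 in KS, while the Y-linked Eif2s3y had 0 counts in UKS and 1486 in KS. With 1 line each, the deletion of Usp16 cannot be told apart from this or any other difference between the lines.

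Both lines expressed fibroblast genes. All 15 of the 15 fibroblast markers were measured, led by Fn1 (fibronectin) at 14582 CPM and Vim (vimentin) at 2413 CPM in UKS, against 8995 and 4205 CPM in KS. Their summed level was 21863 CPM in UKS and 19679 CPM in KS. Of the 15, the proteoglycan gene Dcn was higher in UKS by at least 2-fold and 3 were lower, namely Thy1, Pdgfra and Fap. By the same limit, 5.81% of all measured genes were higher and 10.7% lower. With the length and GC trend described below removed, 2 of the 15 were higher (Dcn and Lum) and 3 lower (Thy1, Vim and Pdgfra).

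Lcn2 was the most abundant of the 5 in UKS. It had 4619 counts in UKS (198 CPM), against 4 counts in KS (0.152 CPM). The count ratio was 1306-fold (95% interval 510 to 4794), and the log2 ratio with 1 CPM added to both levels was 7.43. Only 1 of the 13015 measured genes, Xist, had a higher log2 ratio. The gene lies on chr2:32384633-32388252 of GRCm38, on the minus strand, and its reference transcript has 6 exons and 915 nt.

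Saa3 had 2166 counts in UKS (92.8 CPM), against 4 counts in KS (0.152 CPM). The count ratio was 612-fold (95% interval 239 to 2249) and the log2 ratio 6.35. It lies on chr7:46711998-46715700, minus strand, with 4 exons and 555 nt. Per kilobase of transcript, Lcn2 stood at 216 CPM and Saa3 at 167 CPM in UKS, above 97.6% and 96.8% of measured genes in that library on the same scale. In KS the same 2 genes stood at 0.166 and 0.273 CPM per kb.

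Slpi was not counted at all in KS. It had 535 counts in UKS (22.9 CPM), against 0 counts in KS. With KS set to the floor of 3 counts, the UKS level was at least 202-fold higher, and the lower limit of the 2-sided 95% interval of the count ratio, as used for the other genes, was 163-fold. The gene model spans chr2:164354070-164389095 on the minus strand, and the reference transcript has 4 exons and 876 nt.

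Nos2 had 1168 counts in UKS (50.02 CPM), against 1 count in KS (0.0379 CPM). The count ratio of 1321-fold has an interval from 237 to 52205, because a single KS count stands under it. The log2 ratio with 1 CPM added was 5.62. Nos2 is the longest of the 5 transcripts (27 exons, 4192 nt, chr11:78920787-78960254, plus strand), and per kilobase it stood at 11.9 CPM in UKS, above 55.8% of measured genes.

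Steap4 had the most KS counts of the 5. It had 529 counts in UKS (22.7 CPM), against 8 counts in KS (0.303 CPM). The count ratio was 74.8-fold (95% interval 37.7 to 174) and the log2 ratio 4.18. It lies on chr5:7960457-7982213, plus strand, with 5 exons and 3155 nt, and at 7.18 CPM per kb in UKS it stood above 43.3% of measured genes. Per kilobase in UKS the order was therefore Lcn2, Saa3, Slpi (26.2 CPM per kb), Nos2 and Steap4.

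Together the 5 genes held 9017 counts in UKS and 17 counts in KS. That was 386 CPM in UKS, of which Lcn2 alone gave 51.2% of the counts, and 0.644 CPM in KS. All 5 were at least 2-fold higher in UKS on the log2(CPM + 1) scale, where 756 of the 13015 measured genes (5.81%) were, and 1396 (10.7%) were at least 2-fold lower. Either direction took in 16.5%. The 5 were chosen on this contrast, so their share is not read against that background. Over all measured genes the log2 ratio followed transcript length (Spearman −0.39) and GC content (0.51). After removal of both relations, 720 genes were higher and 674 lower. The share of higher genes among those past 2-fold was then 51.6%, against 35.1% before. The 5 genes kept log2 ratios of 4.11 (Slpi), 4.46 (Steap4), 5.51 (Nos2), 5.95 (Saa3) and 6.97 (Lcn2).

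**Figure D1:**
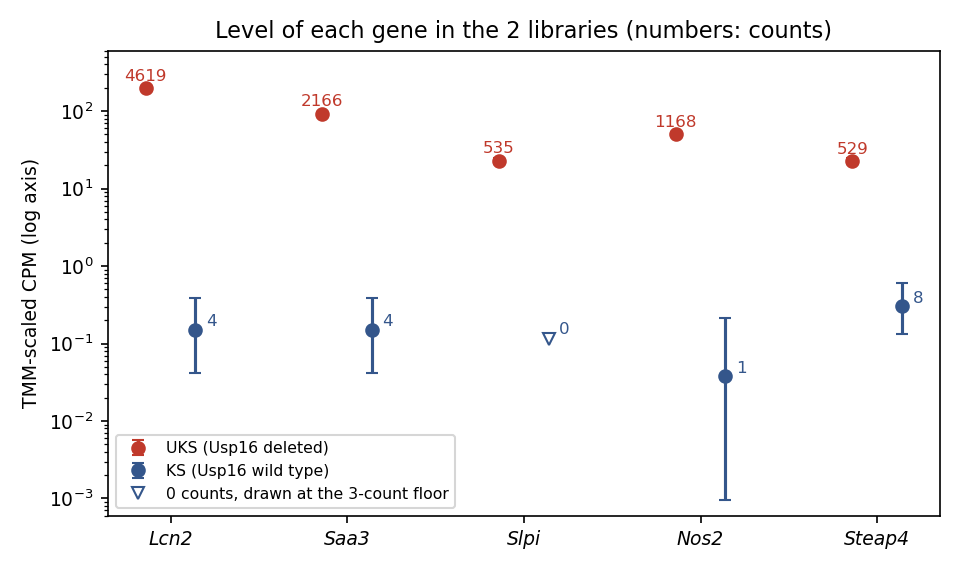
Level of each of the 5 genes in UKS and in KS, as TMM-scaled CPM on a log axis, with exact 95% Poisson intervals of the counts as bars. UKS levels lie between 22.7 and 198 CPM and KS levels at or below 0.303 CPM, and the 0 counts of Slpi in KS are drawn at the level of 3 counts.

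**Figure D2:**
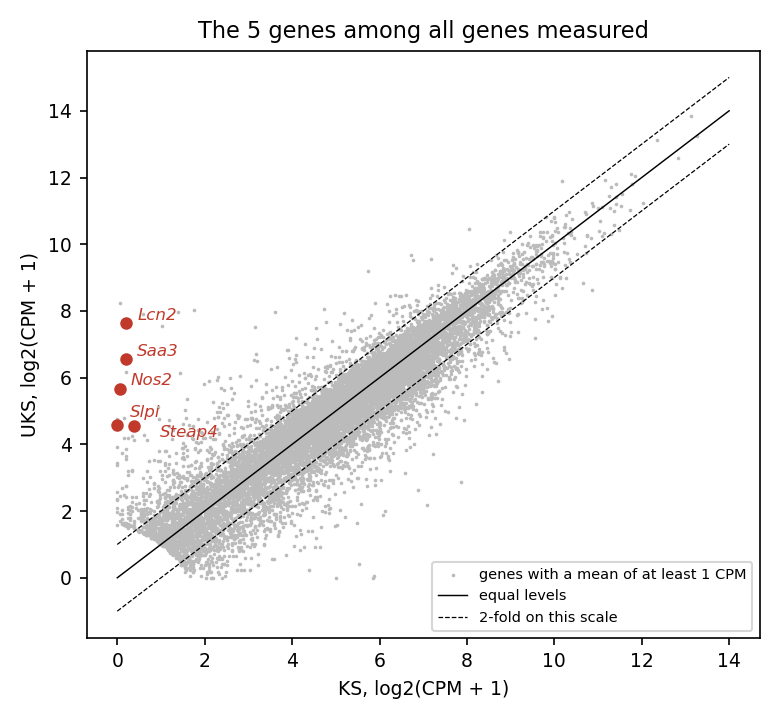
All 13015 measured genes as points, with log2(CPM + 1) in KS on the horizontal axis and in UKS on the vertical axis, and dashed lines at 2-fold. The 5 named genes lie along the left edge, where the KS level is near 0 and the UKS level runs from 22.7 to 198 CPM.

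Few genes shared this pattern. Of 36368 genes with at most 5 counts in KS, 17 (0.0467%) had at least 200 counts in UKS, and Lcn2, Saa3, Nos2 and Slpi were among them. Steap4, with 8 KS counts, fell just outside. Only 20156 of the 51912 gene rows were above 0 in KS, so most of the 36368 had 0 counts there. In the opposite direction, 4 of 36870 genes (0.0108%) with at most 5 counts in UKS had at least 200 in KS, and 3 of the 4 are Y-linked. The choice of the 5 genes fixed their own place in the first count.

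The other 13 genes in the first count were led by Xist, with 6998 counts in UKS and 1 in KS. Genes of further secreted immune proteins were also among them. Lbp, which encodes the lipopolysaccharide-binding protein of the acute phase, had 250 counts in UKS and 4 in KS. Csf3, the gene of granulocyte colony-stimulating factor, had 229 counts in UKS and 0 in KS. Serpina3f, a serine protease inhibitor gene of a multigene family whose members can share reads, had 405 counts in UKS and 5 in KS. Genes with other roles were there too, such as Sim2, a transcription factor gene (626 counts in UKS, 3 in KS), and Slc7a8, an amino acid transporter gene (401 in UKS, 3 in KS). Lbp and Csf3 were picked out here after their values were seen, and 4 of the 17 are predicted gene models.

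Likeness to each of the 5 was taken as the distance between levels over the 2 libraries on the log2(CPM + 1) scale, leaving out the other 4 genes, predicted or clone-named gene models and symbols found on several rows, some of which lay nearer. Among the genes that were left, those most like Lcn2 were Xist (distance 0.615), the collagen gene Col23a1 (0.818) and the complement gene C3 (1.24). Col23a1 had 4321 counts in UKS and 27 in KS, and C3 had 5850 in UKS and 43 in KS. Saa3 lay nearest, among the same genes, Col23a1 (1.28), then the class I histocompatibility gene H2-T10 (1.30), then the neutrophil-attracting chemokine gene Cxcl5 (1.61). H2-T10 belongs to a multigene family, and its counts (1629 in UKS, 45 in KS) are uncertain for that reason. Among them Slpi lay nearest Sim2 (0.268), Slc7a8 (0.425) and Serpina3f (0.457).

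Among the same genes, Nos2 lay nearest Sim2 (0.881), Cxcl5 (1.04) and Neurl3 (1.28), a ubiquitin ligase gene with 611 counts in UKS and 25 in KS. Steap4 lay nearest Sim2 (0.325), Cfb (0.326) and Notum (0.358). Cfb, the gene of complement factor B, had 418 counts in UKS and 7 in KS, and Notum, a Wnt-inactivating enzyme gene, had 434 in UKS and 14 in KS. With 2 libraries a distance says only that both levels are close.

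The closest relatives of Saa3, Steap4 and Nos2 had other levels, and those of Steap4 and Nos2 other ratios. Saa1, Saa2 and Saa4, the other serum amyloid A genes, had 1, 3 and 9 counts in UKS and 0 each in KS, so Saa3 gave nearly all the counts of its family. Their counts lie in the same direction as those of Saa3 and are too few to compare ratios. Saa1 and Saa2 are made chiefly by the liver, and none of these 3 was measured by the filter on level. Reads of this family are partly shared, since 9 of the 506 windows of 50 bases in the Saa3 transcript (1.78%) also occur in Saa1. No window of Lcn2, Slpi, Nos2 or Steap4 occurs in another gene's transcripts.

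All 4 STEAP genes were measured, and Steap4 alone was at least 2-fold higher in UKS. Steap1 had 946 counts in UKS and 662 in KS, a ratio of 1.62 (95% interval 1.46 to 1.79). Steap3, the ferrireductase gene of the transferrin cycle, had 2266 counts in UKS and 1400 in KS, a ratio of 1.83 (1.71 to 1.96). Steap2 had 2354 counts in UKS and 3149 in KS, and its log2 ratio of −0.24 turned to 1.08 with the length and GC trend removed. Per kilobase in UKS, Steap1 (32.9 CPM), Steap3 (18.8 CPM) and Steap2 (9.69 CPM) all stood above Steap4 (7.18 CPM), while in KS Steap4 was at 0.0961 CPM per kb and the other 3 at 10.3 or more. The neuronal and endothelial nitric oxide synthase genes were barely counted: Nos1 had 1 count in UKS and 9 in KS, and Nos3 had 2 in each library. Nos3 shares 20.2% of its 50-base windows with other genes.

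**Figure D3:**
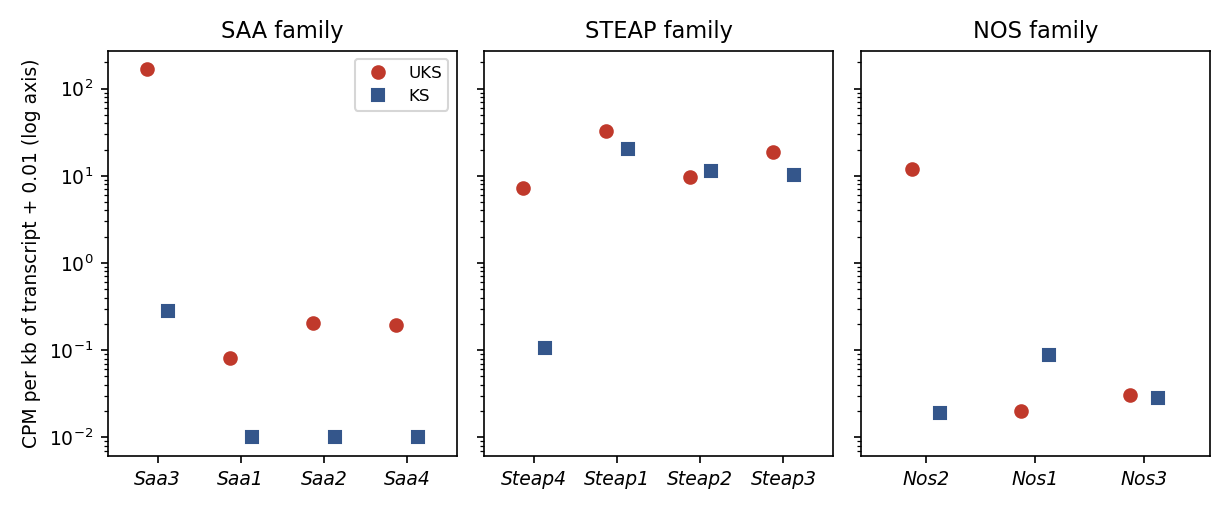
Level per kilobase of transcript in UKS (left point of each pair) and in KS (right point) for the serum amyloid A, STEAP and nitric oxide synthase genes, on a log axis with 0.01 CPM per kb added so that genes at 0 can be drawn. Saa3 and Nos2 stand above their relatives in UKS, and Steap4 joins Steap1, Steap2 and Steap3, which are at 9.69 CPM per kb or more in UKS.

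The wider families of Lcn2 and Slpi were mostly undetected. Of 17 lipocalin genes in the files, 10 had 0 counts in both libraries and 2 were measured, Lcn2 and Apod. Apod, the gene of the lipid carrier apolipoprotein D, had 470 counts in UKS and 274 in KS (log2 ratio 0.89). Of 20 genes of the WAP four-disulfide core family, to which Slpi belongs, 13 had 0 counts in both libraries and 2 were measured, Slpi and Wfdc3. Wfdc3 had 45 counts in UKS and 4 in KS, a ratio of 12.7 (95% interval 4.64 to 48.7), and its log2 ratio was 1.35, or 0.94 with the trend removed.

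Promoter sequences, each 250 bases before to 50 after the start, were matched in RefSeq (GRCm38.p6) for 4 of the 5 genes, and the Nos2 promoter was not searched. The 4 are printed because they are the only ones of the 5 that were matched. Capitals mark matches to the motifs searched on both strands: TGANTCA for AP-1, TTGCNNAA for C/EBP, TTCNNNGAA for STAT and, by name, an NF-kB motif and an interferon response motif of 10 bases each. They lie at chr2:32387690-32387989 (Lcn2, minus strand), chr7:46715627-46715926 (Saa3, minus), chr2:164356458-164356757 (Slpi, minus) and chr5:7960222-7960521 (Steap4, plus).
Lcn2: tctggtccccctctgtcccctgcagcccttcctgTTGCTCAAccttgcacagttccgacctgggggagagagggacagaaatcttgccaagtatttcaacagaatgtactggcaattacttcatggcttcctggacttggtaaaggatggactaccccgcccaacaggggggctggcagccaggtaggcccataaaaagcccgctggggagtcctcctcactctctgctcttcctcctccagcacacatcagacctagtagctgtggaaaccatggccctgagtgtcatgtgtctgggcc
Saa3: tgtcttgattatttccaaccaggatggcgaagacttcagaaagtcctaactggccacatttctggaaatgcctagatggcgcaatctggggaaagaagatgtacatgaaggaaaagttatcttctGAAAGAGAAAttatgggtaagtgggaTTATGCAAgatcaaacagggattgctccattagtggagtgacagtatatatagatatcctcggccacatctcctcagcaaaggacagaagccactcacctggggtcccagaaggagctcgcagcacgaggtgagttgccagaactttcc
Slpi: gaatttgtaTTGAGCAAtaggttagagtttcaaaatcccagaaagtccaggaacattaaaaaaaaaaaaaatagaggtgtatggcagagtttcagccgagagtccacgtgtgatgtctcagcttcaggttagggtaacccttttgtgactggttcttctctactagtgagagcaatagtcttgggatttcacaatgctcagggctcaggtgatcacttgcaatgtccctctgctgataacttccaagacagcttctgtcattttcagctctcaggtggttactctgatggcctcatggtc
Steap4: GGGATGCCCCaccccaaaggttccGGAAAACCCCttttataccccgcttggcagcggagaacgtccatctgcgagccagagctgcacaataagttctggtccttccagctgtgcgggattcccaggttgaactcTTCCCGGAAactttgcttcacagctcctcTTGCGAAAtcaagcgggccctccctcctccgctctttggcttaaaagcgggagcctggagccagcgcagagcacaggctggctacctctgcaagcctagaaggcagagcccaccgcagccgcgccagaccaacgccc

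Each of these 4 promoters held 1 match to the C/EBP motif, which occurs in 10.8% of all 32851 promoters of the same length. The matched letters were TTGCTCAA at −216 to −209 in Lcn2, TTATGCAA at −99 to −92 in Saa3, TTGAGCAA at −241 to −234 in Slpi and TTGCGAAA at −87 to −80 in Steap4, where the Saa3 and Slpi matches are on the reverse strand. Saa1 and Saa2 held 1 match each and Saa4 held 2, and these genes had 9 counts or fewer in UKS. Other matches were scattered: Saa3 had 1 to the interferon response motif (3.44% of all promoters), and Steap4 had 2 to the NF-kB motif (8.46%) and 1 to the STAT motif (8.30%). None of the 4 windows held the AP-1 motif (7.81%) or a TATAAA box on its own strand (8.32%). No printed matches overlapped. A match is a string of letters and not a binding site, and the libraries hold no measure of binding.

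Other acute-phase genes were also higher in UKS. Of 32 listed, 16 were measured, and 11 of these were at least 2-fold higher, 1 lower and 4 between. Their median log2 ratio was 1.93, against 0.03 over all measured genes, of which 5.81% were at least 2-fold higher and 10.7% lower. C3, the central complement component, had 5850 counts in UKS and 43 in KS, a ratio of 154 (95% interval 114 to 213). Cp, which encodes the ferroxidase ceruloplasmin, had 5867 counts in UKS and 298 in KS, a ratio of 22.3 (19.8 to 25.1). Cfb stood at 67.5-fold (32.5 to 169), and C4b, whose reads can be shared with its close paralog C4a, at 18.6-fold. All 4 are complement or plasma proteins of the acute phase.

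The metallothionein genes Mt1 and Mt2 were the most abundant of that list in UKS, at 256 and 254 CPM, against 114 and 74.0 CPM in KS. Mt2 had a log2 ratio of 1.77, and Mt1 one of 1.16 that came to 0.55 with the trend removed. The single gene that was at least 2-fold lower, named for that reason, was Il1rn, the gene of the interleukin-1 receptor antagonist, with 420 counts in UKS and 1388 in KS (log2 ratio −1.50). Of the plasma proteins made chiefly by the liver, Crp, Apcs and A2m had 0 counts in both libraries.

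Among 21 other antimicrobial genes in the files, 7 were measured and 5 of them were at least 2-fold higher in UKS, none lower (median log2 ratio 1.46). The shares over all measured genes were 5.81% higher and 10.7% lower. Cd14, the lipopolysaccharide co-receptor gene, had 1455 counts in UKS and 496 in KS. Ptx3, encoding the pattern recognition protein pentraxin 3, had 1132 in UKS and 280 in KS. Acod1, which encodes the enzyme that makes itaconate, had 48 counts in UKS and 3 in KS, a ratio of 18.1 (95% interval 5.83 to 90.8). Bst2, encoding tetherin, which restricts virus release, was the most abundant at 814 CPM in UKS and 405 CPM in KS, with a log2 ratio of 1.005 that came to 0.49 with the trend removed. Lbp and Ptx3 are on the acute-phase list as well.

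Markers of granulocytes, which make lipocalin 2 and many antimicrobial proteins, were close to 0. None of 12 neutrophil markers was measured, and 7 of them had 0 counts in both libraries, Elane, Mpo, Ltf and S100a9 included. Their summed level was 1.46 CPM in UKS and 0.303 CPM in KS, against 386 CPM in UKS and 0.644 CPM in KS for the 5 genes. The macrophage markers Adgre1 and Tyrobp also had 0 counts in both libraries. Of the 11 macrophage markers in the files 2 were measured, and they summed to 68.1 CPM in UKS and 25.99 CPM in KS, mostly from Cd14. Epithelial markers summed to 12.98 CPM in UKS and 19.9 CPM in KS (2 of 10 measured), and hepatocyte markers to 3.26 CPM in UKS and 2.77 CPM in KS (1 of 9 measured). Endothelial markers summed to 16.5 CPM in UKS and 10.9 CPM in KS (3 of 7 measured), and adipocyte markers to 56.2 CPM in UKS and 37.6 CPM in KS (3 of 7). In bulk RNA, more cells of a type and more RNA per cell cannot be told apart.

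Genes linked to lipocalin 2 differed in direction. Mmp9 had 173 counts in UKS and 5 in KS, a ratio of 39.1 (95% interval 16.4 to 122). Its protease has been described in a complex with human lipocalin 2. Bdh2, which has been linked to the making of a mammalian siderophore, had 213 in UKS and 72 in KS (log2 ratio 1.44). Of the receptor genes, Slc22a17 had 278 counts in UKS and 156 in KS (0.90), and Lrp2, encoding megalin, had 17 in UKS and 105 in KS (−1.53, or −0.53 with the trend removed). For serum amyloid A, the Toll-like receptor gene Tlr2 had 1088 counts in UKS and 255 in KS, a ratio of 4.82 (4.20 to 5.55). P2rx7, the gene of an ATP-gated channel, had 104 in UKS and 321 in KS (log2 ratio −1.27). Tlr4 (−0.48) and Scarb1 (0.21) were under 2-fold, and both changed sign with the trend removed. The formyl peptide receptor gene Fpr2 had 0 counts in UKS and 3 in KS.

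For Slpi, none of the 5 listed leukocyte serine proteases was measured. Elane, Ctsg and Mcpt4 had 0 counts in both libraries, Prtn3 had 3 in UKS and 4 in KS, and Cma1 had 5 in UKS and 4 in KS.

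Most genes around nitric oxide were under 2-fold, and some that supply its synthase were higher in UKS. Of 17 measured genes around nitric oxide, 4 were at least 2-fold higher, 1 lower and 12 between (median log2 ratio 0.15). Among all measured genes, 5.81% were higher and 10.7% lower by that limit. Slc7a2, an arginine transporter gene, had 3177 counts in UKS and 764 in KS, a ratio of 4.70 (95% interval 4.34 to 5.09). Ass1, whose enzyme rebuilds arginine from citrulline, had 8096 in UKS and 1984 in KS, a ratio of 4.61 (4.39 to 4.85). Gch1, encoding the first enzyme of tetrahydrobiopterin synthesis, had 1074 in UKS and 412 in KS, a ratio of 2.95 (2.63 to 3.31). Slc7a2 and Ass1 act in the supply of arginine, the substrate, and Gch1 in that of tetrahydrobiopterin. All 3 are among the 4 that were at least 2-fold higher.

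Arg2, whose arginase competes for the same substrate, was also higher, with 708 counts in UKS and 101 in KS (7.93-fold, 6.43 to 9.86). Ddah1, which breaks down methylarginine inhibitors of the synthase, had 814 in UKS and 2219 in KS (log2 ratio −1.25).

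Of 10 measured genes of iron and copper handling, the setting in which Steap4 acts, 4 were at least 2-fold higher in UKS, none lower and 6 between (median log2 ratio 0.85). Cp is one of the 4. Genes past that limit made up 5.81% (higher) and 10.7% (lower) of all measured genes. Fth1, the ferritin heavy chain gene, stood at 3784 CPM in UKS and 1157 CPM in KS (log2 ratio 1.71). Hmox1, encoding heme oxygenase 1, had a log2 ratio of 1.28, or 0.91 with the trend removed, and Slc39a8, a metal importer gene, one of 1.14. Ftl1, the ferritin light chain gene, was at 3924 CPM in UKS and 2296 CPM in KS (0.77). Ferritin genes have many processed pseudogenes, so their counts are uncertain.

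Several regulators of such genes were higher in UKS. Of 27 measured, 12 were at least 2-fold higher, 1 lower and 14 between (median log2 ratio 0.93). That stands beside 5.81% higher and 10.7% lower over all measured genes. With the trend removed, 9 of the 27 were higher and none lower. Zc3h12a, which encodes an endonuclease that degrades inflammatory mRNAs, had 1225 counts in UKS and 193 in KS (2.69). Bcl3 (2.32) and Nfkbia (2.29) encode IkappaB family proteins, and Junb (2.06) encodes a subunit of AP-1. Hif1a, which encodes a subunit of the hypoxia-inducible factor, was at 264 CPM in UKS and 487 CPM in KS.

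Nfkbiz, Cebpd and Cebpb, for factors of the background paragraph, are named after their values were seen. No gene of an NF-kB subunit is named, and 14 of the 27 measured regulators were between the 2-fold limits. Nfkbiz had 3533 counts in UKS and 1435 in KS, a ratio of 2.78 (95% interval 2.62 to 2.96). Cebpd had 4696 in UKS and 2190 in KS, a ratio of 2.42 (2.30 to 2.55). Cebpb had 902 in UKS and 435 in KS, a log2 ratio of 1.18 that came to 0.68 with the trend removed. The 1 lower gene was Zc3h12c, an RNase gene related to Zc3h12a, with a log2 ratio of −1.09, or −0.31 with the trend removed.

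Transcripts of several inducing cytokines were nearly absent, but those of Il6 and Lif were not. Il1b, Il17a, Osm and Ifng had 0 counts in both libraries, Il1a had 0 in UKS and 1 in KS, and Tnf had 10 in UKS and 0 in KS. By the 2-fold limit, 5.81% of all measured genes were higher in UKS and 10.7% lower. Of 17 measured genes of inducing cytokines and their receptors, 2 exceeded 2-fold, higher in UKS, and 15 were between (median log2 ratio 0.08). Those 2 were the interleukin-6 family cytokine genes Lif, with 3383 counts in UKS and 421 in KS, a ratio of 9.09 (95% interval 8.21 to 10.1), and Il6, with 133 in UKS and 24 in KS, a ratio of 6.27 (4.03 to 10.1). Their shared receptor chain, Il6st, was at 336 CPM in UKS and 340 CPM in KS, and the tumour necrosis factor receptor gene Tnfrsf1a at 256 CPM in UKS and 174 CPM in KS. Secreted cytokine in the medium was not measured.

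Of the lists that hold none of the 5 genes, that of other cytokine-induced fibroblast genes had the highest median. Of 20 measured, UKS exceeded KS by at least 2-fold in 18, and 2 were between (median log2 ratio 2.61). For all measured genes the shares were 5.81% higher and 10.7% lower. Cxcl1, a chemokine gene, had 6126 counts in UKS and 63 in KS, a ratio of 110 (95% interval 85.8 to 143). Mmp3, encoding stromelysin 1, had 4216 in UKS and 208 in KS, a ratio of 22.9 (19.9 to 26.5). Cxcl5 had 788 in UKS and 24 in KS, a ratio of 37.1 (24.8 to 58.3). Ptges, the gene of prostaglandin E synthase, was the most abundant at 586 CPM in UKS and 52.3 CPM in KS.

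The other 2 genes of that list were the adhesion molecule gene Vcam1 (log2 ratio 0.15) and the chemokine gene Ccl7 (0.24). Csf3, on this list and among the 17 near-silent genes, was at least 86.3-fold higher, again with KS set to 3 counts (lower limit of the 2-sided 95% interval 69.6-fold). C3 is shared by this list and the acute-phase list. These lists were drawn up with earlier results of the same libraries known, so their counts describe the setting of the 5 genes and give no independent support.

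**Figure D4:**
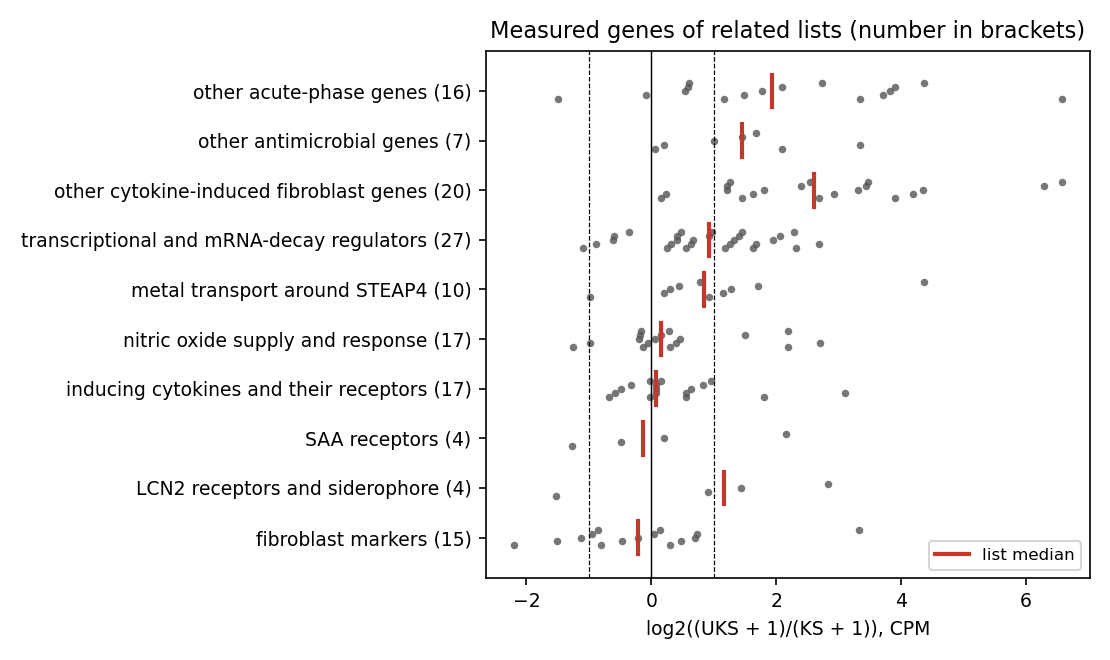
Log2((UKS + 1)/(KS + 1)) in CPM of the measured genes of each list, as points, with the median of each list as a bar and dashed lines at 2-fold. The cytokine-induced fibroblast genes have a median of 2.61 and the other acute-phase genes 1.93, while the cytokines and their receptors have 0.08 and the fibroblast markers −0.21.

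Most measured genes next to Lcn2, Saa3, Nos2 and Steap4 were under 2-fold. Within 100 kb of Lcn2, 1 of 8 measured genes was at least 2-fold higher, 1110008P14Rik (1048 counts in UKS, 452 in KS, log2 ratio 1.34, or 0.73 with the trend removed). Within 100 kb of Saa3, Nos2 and Steap4, 0 of 5, 0 of 3 and 0 of 2 measured genes were, with medians of 0.30, 0.35 and −0.16. Saal1, whose start lies 5.0 kb from that of Saa3, had 957 counts in UKS and 817 in KS (log2 ratio 0.39).

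Around Slpi several genes were higher in UKS. At least 2-fold higher levels in UKS were found for 5.81% of all measured genes. Of 5 measured genes within 100 kb of the Slpi gene model, 3 were higher in UKS by at least 2-fold, and the median log2 ratio of the 5 was 1.61. All 3 start upstream of the Slpi start, at negative distances from it. Matn4, the gene of the matrix protein matrilin 4, starts at −48.1 kb and had 197 counts in UKS and 7 in KS, a ratio of 31.8 (95% interval 15.2 to 80.2). Its gene model lies 298 bases from that of Slpi, and transcription running from one into the other was not examined. Sdc4, the syndecan 4 gene, starts at −86.7 kb and had 8312 counts in UKS and 2124 in KS, a ratio of 4.42 (4.22 to 4.64).

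The last of them, the predicted gene Gm20458, had 115 counts in UKS and 25 in KS. It starts at the same place as Sys1, at −104 kb, and reads of the 2 genes cannot be told apart with certainty. Sys1 had 1021 counts in UKS and 690 in KS (log2 ratio 0.72). Over 500 kb on either side, 4 of 20 measured genes around Slpi were at least 2-fold higher, Wfdc3 being the fourth, against 1 of 26 around Lcn2, 0 of 11 around Saa3, 0 of 14 around Nos2 and 0 of 4 around Steap4. The share at least 2-fold higher over all measured genes was 5.81%, and the difference between these regions was not tested.

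**Figure D5:**
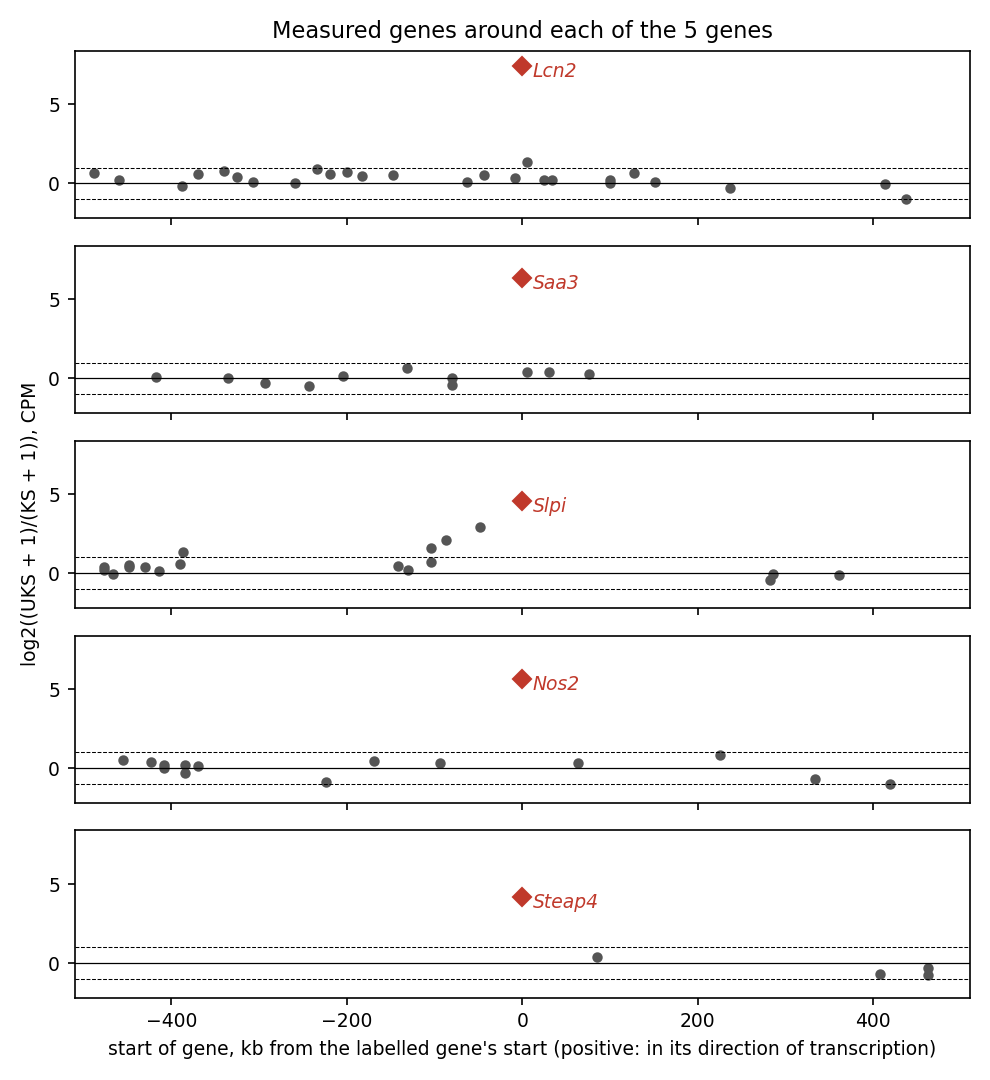
Log2((UKS + 1)/(KS + 1)) in CPM of measured genes around each of the 5 genes, against the distance of their starts in kb, positive in the direction of transcription, with dashed lines at 2-fold. The named gene is the diamond at 0. Around Slpi, 3 genes upstream lie above the 2-fold line near it, with log2 ratios of 1.61, 2.13 and 2.90.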

How the data were processed

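RNA was measured in 2 libraries, 1 of Usp16-deleted (UKS) and 1 of Usp16 wild-type (KS) mouse embryonic fibroblasts, grouped by their sample labels. Both lines carry 1 more engineered alteration, which is not reported here, nor are some genes that the naming rule below would give. Per the labels' protocols, libraries were made from total RNA with an Illumina TruSeq kit. The submitters' processing notes name GRCm38.p5 as genome build, and StringTie and HISAT2 as tools. Not given in the sources used here are the counting program, the annotation release and whether strand was used, so reads of overlapping, antisense or near-identical genes may be shared.

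The authors deposited estimated counts (expected counts, not scaled to depth) for 51912 genes. Of genes above 0, 21.5% in UKS and 23.1% in KS were not whole, and all were rounded. TMM factors (1.01 for UKS, 0.994 for KS) came from edgeR 4.0.16 in R 4.3.3. The main value was log2((UKS + 1)/(KS + 1)) in CPM for genes whose mean level reached 1 CPM, and 2-fold is a size, not a test. No test was made, with 1 library per group. Fold intervals are exact conditional binomial (Clopper-Pearson) and count intervals exact Poisson at 95% (scipy 1.17.1). A gene at 0 counts was bounded by 3 counts. The length and GC trend was a robust regression (statsmodels 0.14.6) over genes outside the lists, using GENCODE M21 transcripts, which gave both properties for 12997 genes, and the scripts were tested on simulated data. Lengths and starts are of the best-supported transcript, and coordinates of the whole gene. Promoters came from RefSeq (GRCm38.p6).

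The members and all gene lists were chosen with earlier results of these data known. Named genes are the 5 members, their families, in each list up to 4 measured genes with the largest absolute log2 ratio and up to 2 with the highest UKS level, the 3 nearest genes in level, the 10 best-counted near-silent genes, neighbours within 100 kb, and Usp16. Others are named after their values were seen, namely the only genes in a count, marker genes, genes at or near 0, and regulators known from the background. Alternatives were other scalings (DESeq2 1.42.0 size factors, total counts, upper quartile), pseudocounts of 0.5 and 5 CPM, counts not rounded, other filters on level and other count limits.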

Additional observations from a re-analysis of the deposited data

How the results depend on the processing

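All 5 genes stayed at least 2-fold higher in UKS under every alternative run. With a pseudocount of 0.5 CPM their log2 ratios were 8.25 (Lcn2), 7.16 (Saa3), 5.55 (Slpi), 6.55 (Nos2) and 4.85 (Steap4), and with 5 CPM 5.30, 4.25, 2.48, 3.45 and 2.38 in the same order. Because KS counts are near 0, these sizes depend on the pseudocount, and that of Slpi is no bound. With the length and GC trend removed, Lcn2 came to 6.97, Saa3 to 5.95 and Slpi to 4.11, outside their counting intervals, and Nos2 and Steap4 stayed inside theirs. Genes at least 2-fold higher numbered 412 and lower ones 836 with 5 CPM added, and lower ones 674 with the trend removed, against 756 and 1396. The number of genes near-silent in KS was 17, of which 4 were among the 5 described. It was 8 with at most 2 KS counts, with Slpi and Nos2 still counted and Lcn2 and Saa3 no longer, and 20 with at most 10, where all 5 were counted. It was 26 with at least 100 UKS counts and 10 with at least 400, each with the same 4, and the number near-silent in UKS, 4, was 13 with at least 100 KS counts. No paired analysis was possible because each group has 1 library, and for the same reason no library could be left out. At this depth a gene at 0 counts may be present at up to 0.128 CPM in UKS or 0.114 CPM in KS.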
